A study of Mus musculus with 14 samples.

Results

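The genes described here are 9 genes of arginine metabolism in mouse macrophages. They are the arginases Arg1 and Arg2, the inducible nitric oxide synthase Nos2 and its cofactor enzyme Gch1, the arginine carrier Slc7a2, the arginine-rebuilding enzymes Ass1 and Asl, the polyamine enzyme Odc1 and the ornithine enzyme Oat. Their probes were found by matching the RefSeq accessions in the array files to gene symbols, which gave 13 of 55634 probes and 9 of 21356 genes with a symbol. All 9 passed the filter on dim probes and were among the 15834 genes tested. The genes were chosen by their signals on these same arrays, Arg1 and Nos2 for their levels over the groups and the set for its response to tumour material. The values of Arg1 and Nos2, and every response of the 9 genes to tumour material, are therefore descriptions without a test. For the other 7 genes the comparisons between genotypes were tested. These comparisons use the same group values as the response that chose the set. Their adjusted p and counts are thus not independent of the choice. Slc7a2, like Arg1, passed the filter only through its tumour groups.

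The macrophages were grown with M-CSF for 1 week from the bone marrow of female C57BL/6 mice aged 8 weeks. All mice carried LysM-Double-Cre, in which the lysozyme M promoter of myeloid cells drives Cre recombinase. The TFEB transgene+ mice are called transgenic here, and the TFEB transgene- mice, which have the same Cre, are called wild-type. After replating, the cells spent 24 h in DMEM only (control) or in DMEM with serum-free medium conditioned by EO771 mouse mammary tumour cells and with tumour lysate (tumour material). RNA was read on 14 one-colour Agilent arrays of 11 replicates: 3 wild-type control, 3 wild-type tumour, 3 transgenic control and 2 transgenic tumour. Replicate 3 of every group but the transgenic control was read on a pair of arrays, which count as 1 replicate, and transgenic tumour replicate 1 is not analysed here. The labels do not say that replicates came from separate mice or cultures, so p-values measure the spread between these samples, which may be technical.

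Macrophages spend arginine along competing routes. Nos2 turns it into nitric oxide and citrulline, a reaction that needs tetrahydrobiopterin, whose synthesis Gch1 begins. Arginases split it into urea and ornithine, which Odc1 commits to polyamines and Oat to proline. Slc7a2 carries arginine into activated macrophages, and Ass1 with Asl rebuilds it from citrulline. High Arg1 is widely used as a mark of alternative activation and of macrophages in tumours, and high Nos2 as a mark of inflammatory activation. TFEB is a transcription factor of lysosome and autophagy genes that binds E-box motifs of the CLEAR type.

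The RefSeq promoter table (GRCm38.p6, 250 bases before to 50 after each gene's start) held 4 of the 9 genes: Ass1, Gch1, Oat and Odc1. Arg1, Arg2, Nos2, Slc7a2 and Asl had no entry. The Ass1 and Gch1 promoters are shown because these genes were higher with tumour material and lower in transgenic than in wild-type control cells, in these arrays. Capitals mark CACGTG, the E-box core bound by TFEB and MYC, in Ass1, and TATAAA on the opposite strand (read here as TTTATA) in Gch1.
Ass1, chr2:31470020-31470319, plus strand: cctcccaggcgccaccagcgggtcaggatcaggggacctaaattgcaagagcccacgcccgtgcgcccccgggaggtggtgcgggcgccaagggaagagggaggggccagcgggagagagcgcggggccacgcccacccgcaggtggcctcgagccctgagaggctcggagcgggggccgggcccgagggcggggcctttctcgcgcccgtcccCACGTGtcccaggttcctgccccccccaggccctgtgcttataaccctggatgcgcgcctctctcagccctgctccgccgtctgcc
Gch1, chr14:47189364-47189663, minus strand: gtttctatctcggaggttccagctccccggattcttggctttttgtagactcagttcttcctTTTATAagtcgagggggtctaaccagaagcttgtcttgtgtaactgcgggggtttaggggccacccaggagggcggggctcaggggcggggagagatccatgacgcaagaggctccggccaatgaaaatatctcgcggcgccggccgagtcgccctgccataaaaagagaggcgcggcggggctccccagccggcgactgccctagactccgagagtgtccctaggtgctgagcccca
The E-box of Ass1 begins at base 215 of the window, at -36 from the start, and also holds ACGTG, the core of hypoxia elements, on each strand. CACGTG was present in 7.15% of 32851 promoters of this length and ACGTG in 19.6%. Oat held ACGTG on the reverse strand, 14 bases after the start, and Odc1 held none of the motifs searched. The TATAAA of Gch1 lies at -188, and 13.6% of all promoters held those letters. None of the 4 promoters held the STAT-type motif TTCNNNGAA, present in 8.30% of all promoters, its STAT6 form with 4 bases between TTC and GAA, present in 6.95%, or an NF-kB-type motif (GGGA, any base, TTTCC), present in 0.411%. GC content was 74.0% for Ass1, 60.3% for Gch1, 61.7% for Oat and 78.0% for Odc1, against a median of 52.7% over all promoters. All motifs were searched on both strands, and a match is a description of the letters only.

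A level is given here as the log2 of a probe's signal over its array's 75th percentile, so 0 is the 75th percentile. Levels are compared between samples for 1 probe and never between genes. Between 35.5% and 40.2% of spots per array were well above background, none was saturated, and the number of arrays limits the precision. Replicates of a group correlated at 0.988 to 0.995 over all genes, apart from the transgenic controls, where replicate 1 correlated at 0.959 and 0.957 with the other two. Transgenic control replicates 1 and 2 and 1 array of transgenic tumour replicate 3 lay in column 4 of their slides, where the scanner's spatial correction was larger (0.253 to 0.331, against 0.0964 to 0.126 on the other arrays). The arrays lay on 2 slides, and all transgenic tumour arrays were on slide 2. The probe of Tfeb read 0.31 ± 0.13 (SE) higher in transgenic than in wild-type cells in control medium (limma, adjusted p = 0.164) and 0.69 ± 0.16 higher with tumour material (adjusted p = 0.0265). The latter call ended when any of 6 of the 11 replicates was left out, with adjusted p up to 0.201. The sources do not say whether this probe reads the transgene. Of 12 macrophage markers 10 were tested, with a summed signal of 1841 to 2953 times the 75th percentile over the groups. Each of the 10 was above background on all 14 arrays, but not each was high. Cx3cr1 was at 2.87 and 0.95 in wild-type and transgenic control cells and at -1.05 and -1.11 with tumour material. Lyz2, which was not tested, was above background on 4 of 14 arrays. The summed signal of 10 neutrophil and precursor markers was 238 to 256 in wild-type control, 91.6 to 119 in wild-type tumour, 178 to 576 in transgenic control and 57.6 to 68.6 in transgenic tumour cells. The sum was thus lower with tumour material, and lower in transgenic than in wild-type tumour cells without overlap. Not every marker followed it. Mmp8 rose with tumour material, from 2.97 to 5.16 in wild-type and from 0.92 to 4.87 in transgenic cells. Mpo, Ctsg, Ltf and Elane had higher means in transgenic tumour cells (-1.08, -0.22, -1.54 and 2.15) than in wild-type ones (-1.86, -0.92, -1.84 and 2.00). Camp, S100a8, S100a9 and Mmp8 had lower means there. The part of these markers in the results was not tested. None of the 9 epithelial, 4 B-cell or 5 erythroid markers passed the filter.

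**Figure D1:**
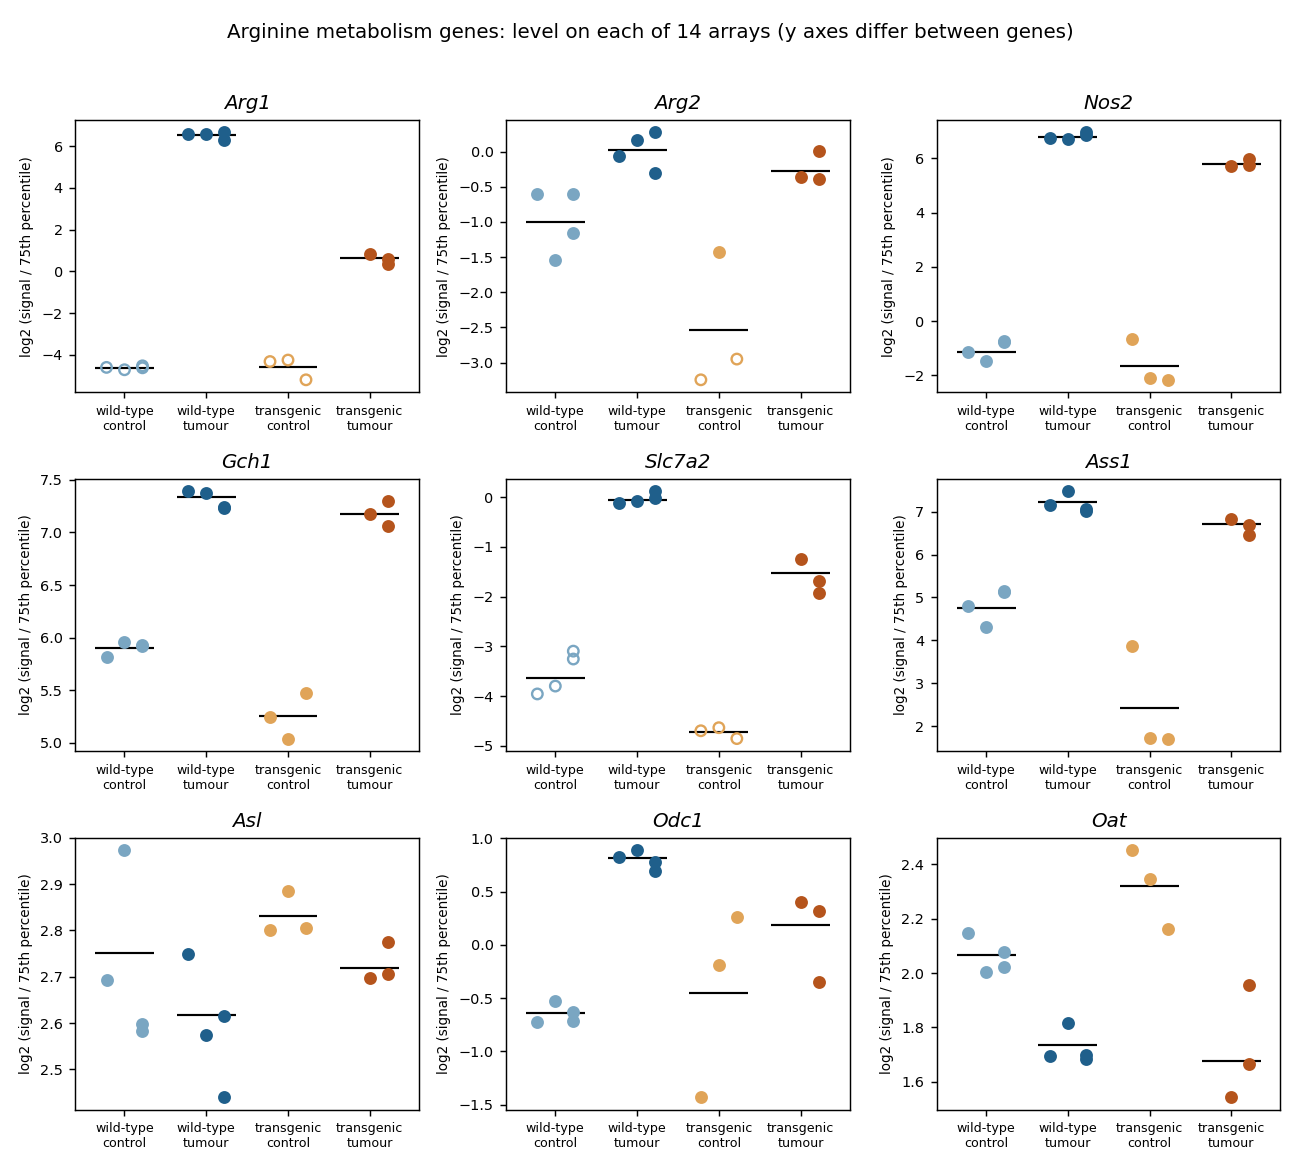
Level of each of the 9 genes on each of 14 arrays (y axis, log2 signal over the array's 75th percentile; x axis, group, with replicates 1 to 3 from left to right and repeat arrays of replicate 3 stacked). Open circles are arrays where the probe was not well above background and black lines are means over replicates; Arg1 rises from open circles to 6.56 in wild-type tumour cells and 0.66 in transgenic tumour cells, while Nos2 reaches 6.78 and 5.79.

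Most of the 9 genes were higher with tumour material in both genotypes. In wild-type cells 8 of 9 genes passed the threshold of adjusted p 0.05, 7 higher and 1 lower, and the same share over all genes tested was 39.9%. In transgenic cells 7 of 9 passed, 6 higher and 1 lower, against 25.3% of all genes. Control and tumour replicates did not overlap for 8 of 9 genes in wild-type cells, against 58% of all genes, and for 8 of 9 in transgenic cells, against 50.6%. Leaving out 1 replicate ended the wild-type call of Arg2 in 6 of 11 fits and of Oat in 4, and the transgenic call of Oat in 2. The median difference over the 9 genes was 1.45 in wild-type cells, against 0.05 over all genes. It was 2.57 in transgenic cells (2.00 with dim groups at their bound), against 0.06 over all genes. Since the genes were chosen for this response, these counts support nothing. In these bulk samples fewer cells of a type and less RNA per cell cannot be told apart.

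Arg1, the arginase of the cytosol, had the largest difference between genotypes among the 9 genes. In wild-type control cells its levels were -4.60, -4.72 and -4.58, and in transgenic control cells -4.32, -4.25 and -5.20, not well above background on any of the 7 arrays. With tumour material it reached 6.60, 6.61 and 6.47 in the wild-type replicates. It reached 0.85 and 0.48 in the transgenic replicates. The control groups were thus at background, and every transgenic tumour replicate lay far below every wild-type tumour replicate. For a group at background, a fold is given only as a bound, against the dimmest signal that passed on each array. Brighter probes can fail too. In transgenic control replicate 2 an Odc1 probe at -2.47 was not above background, while the dimmest passing signal was -3.61. All folds given as bounds are relative to that signal and are not a guaranteed minimum. On that basis Arg1 was at least 670-fold higher with tumour material in wild-type cells and at least 18.3-fold higher in transgenic cells. These bounds hold for the background-subtracted signal, and with normexp, whose offset raises dim signals, the log2 bounds were 6.97 and 1.66 in place of 9.39 and 4.19.

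With tumour material Arg1 was 50.7-fold lower in transgenic than in wild-type cells, a difference of -5.66 ± 0.22 (SE) on the log2 scale. Leaving out each of the 11 replicates in turn gave -5.86 to -5.51. On slide 2 alone, which holds 3 transgenic tumour arrays and 1 wild-type one, the difference was -5.68. The second array of tumour replicate 3 differed from the first by -0.39 in wild-type and -0.26 in transgenic cells. The difference between genotypes thus rests on 3 and 2 replicates and is larger than the spread between them.

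Some fibroblast markers moved with Arg1 and others did not. The gene of all those tested whose replicate levels were most like those of Arg1 was Lum, which encodes the matrix proteoglycan lumican (Pearson r = 0.996 over the 11 replicates, a description that rests largely on the contrast between media). Lum was at 2.28 ± 0.14 (SD, n = 3) in wild-type tumour cells and -2.07 ± 0.13 (SD, n = 2) in transgenic tumour cells, where 2 of 3 arrays were above background, and was not above background on any control array. Lum is also 1 of the fibroblast markers. The summed signal of the 6 fibroblast markers tested, of 8 listed, was 33.4 to 43.7 in wild-type tumour cells, 8.35 to 9.56 in transgenic tumour cells, 1.69 to 22.7 in wild-type control cells and 1.24 to 9.80 in transgenic control cells. Pdgfra and Postn, which define many fibroblasts, were not above background on any array. Dcn had means of 0.97 and 4.64 in wild-type control and tumour cells and -0.10 and 2.58 in the transgenic groups. Col1a1, Col1a2 and Col3a1 had like means in wild-type control and tumour cells, at -0.25 and -0.11, 2.20 and 2.46, and -0.18 and -0.09, with a wide spread among the wild-type controls (SD 1.90, 2.11 and 2.63, n = 3). All 3 were lower in transgenic than in wild-type tumour cells. Thy1 went the other way between genotypes, at -1.25 in wild-type and -0.41 in transgenic tumour cells. The part of such cells in the Arg1 result was not tested.

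The other genes most like Arg1 were Il1f6 (an interleukin of the IL-36 family, r = 0.996), Mgarp (r = 0.992), Siglece (an inhibitory sialic acid receptor of myeloid cells, r = 0.991) and Ikbkg (a subunit of the IκB kinase complex, r = 0.990). Il1f6 was at 1.99 ± 0.31 (SD, n = 3) in wild-type tumour cells and -2.03 ± 0.60 (SD, n = 2) in transgenic tumour cells. Siglece was at 3.86 ± 0.15 and 2.21 ± 0.17 in the same groups. Since the 5 genes were picked for their likeness to Arg1, a shared pattern is no finding.

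**Figure D2:**
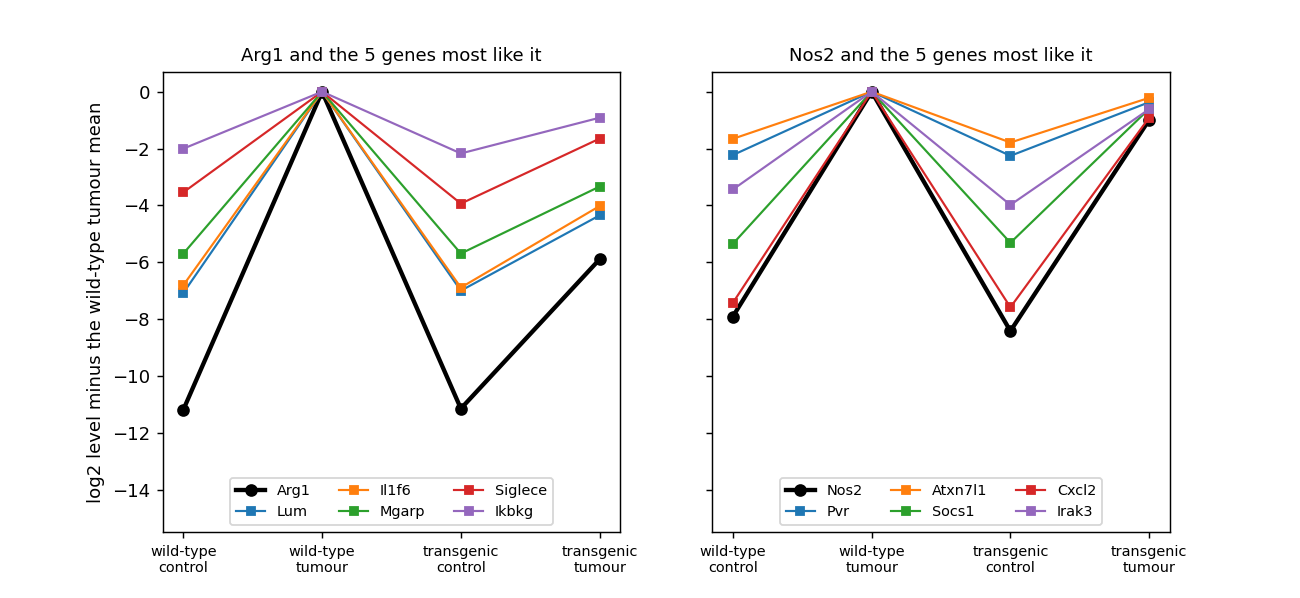
Group means of Arg1 (left) and Nos2 (right) with the 5 genes most like each by Pearson correlation over 11 replicates (y axis, log2 level minus the gene's own wild-type tumour mean; x axis, group). Lines join groups for reading only; genes like Arg1 stay below the wild-type tumour mean in transgenic tumour cells, Lum by more than Ikbkg, and genes like Nos2 return close to it.

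Arg2, the mitochondrial arginase, showed no such gap with tumour material. Its levels were -0.61, -1.54 and -0.87 in wild-type control cells and -0.06, 0.16 and -0.01 in wild-type tumour cells. In transgenic control cells they were -3.24, -1.43 and -2.95, above background only in replicate 2. In transgenic tumour cells they were -0.37 and -0.19. Each tumour replicate thus lay above every control replicate of its genotype, and the transgenic controls were spread widely. Tumour material raised Arg2 by 1.0 ± 0.34 in wild-type and by 2.57 ± 0.44 in transgenic cells (log2 difference ± SE), the latter against a control group above background on 1 of 3 arrays. With normexp, which adds an offset and so compresses differences of dim probes, the values were 0.46 and 1.07.

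In control medium Arg2 was lower in transgenic than in wild-type cells by -1.53 ± 0.36 (limma, adjusted p = 0.0231), with overlapping replicates and 2 of 3 transgenic arrays not above background, so its size is uncertain. With normexp it was -0.76 (adjusted p = 0.00633). The call ended without wild-type control replicate 1, wild-type control replicate 3, transgenic control replicate 3 or transgenic tumour replicate 3. Over the 11 fits that each left out 1 replicate, the difference ran from -2.10 to -1.09 and the adjusted p from 0.00118 to 0.19. With repeat arrays averaged and no slide term it was -1.54 (adjusted p = 0.071). Within slide 1 the difference was -1.42 (adjusted p = 0.132). Within slide 2, with 1 array in each control group, it was -1.80. With tumour material the fitted difference between genotypes was 0.05 ± 0.44 (limma, adjusted p = 0.969), although both transgenic replicates lay below the 3 wild-type ones. Without the slide term it was -0.28 (adjusted p = 0.75). The second arrays of replicate 3 differed from the first by -0.56 in wild-type control, -0.58 in wild-type tumour and 0.41 in transgenic tumour cells, each more than the fitted difference.

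Nos2, which makes nitric oxide in activated macrophages, rose by a similar fold in both genotypes. Its levels were -1.15, -1.48 and -0.76 in wild-type control cells and 6.75, 6.69 and 6.90 in wild-type tumour cells. They were -0.65, -2.11 and -2.16 in transgenic control cells and 5.72 and 5.86 in transgenic tumour cells. Tumour replicates lay far above the controls in each genotype, and both transgenic tumour replicates lay below the wild-type ones. The differences were 7.86 ± 0.30 in wild-type cells, a 232-fold rise, and 7.51 ± 0.39 in transgenic cells, a 183-fold rise (± SE). Within slide 1 the wild-type value was 7.94, and within slide 2 the values were 7.60 and 7.98.

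Between genotypes Nos2 differed by -0.58 ± 0.32 in control medium and by -0.93 ± 0.39 with tumour material (transgenic minus wild-type, SE). Without transgenic control replicate 1 these values were -1.17 and -1.14. The transgenic response minus the wild-type response was -0.35 ± 0.49, with -0.90 to 0.03 over the leave-outs and 0.38 on slide 2 alone. With normexp the rises were 6.35 and 5.88. Within a sample, Arg1 minus Nos2 was -0.14, -0.09 and -0.43 in wild-type tumour cells and -4.87 and -5.38 in transgenic tumour cells. These values have meaning only as a shift between samples, since they set 1 probe against another, and the 2 groups did not overlap.

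The genes most like Nos2 were Pvr, Atxn7l1, Socs1, Cxcl2 and Irak3, with r from 0.993 to 0.996 over the 11 replicates. Socs1, a feedback inhibitor of cytokine receptors, was at 6.75 ± 0.05 (SD, n = 3) in wild-type tumour cells, at 6.14 ± 0.03 (SD, n = 2) in transgenic tumour cells, and at 1.39 ± 0.10 and 1.43 ± 0.16 (SD, n = 3 each) in their controls. Cxcl2, a chemokine that draws neutrophils, was at 3.00 ± 0.18 and 2.09 ± 0.18 with tumour material and at -4.43 ± 0.25 and -4.59 ± 0.53 in the controls. Irak3, an inhibitor of Toll-like receptor signalling, was at 7.04 ± 0.02 and 6.43 ± 0.13 with tumour material. Their likeness to Nos2 was fixed by the choice, and no more is read from it.

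Gch1, the first enzyme of tetrahydrobiopterin synthesis, rose with Nos2 in both genotypes. Its levels were 5.81, 5.96 and 5.93 in wild-type control cells and 7.39, 7.38 and 7.24 in wild-type tumour cells. In transgenic cells they were 5.24, 5.04 and 5.48 in control medium and 7.17 and 7.18 with tumour material. The groups did not overlap in any of the comparisons. The rise was 1.41 ± 0.11 in wild-type cells and 1.87 ± 0.14 in transgenic cells, and a second probe gave 0.84 and 1.2.

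In control medium Gch1 was lower in transgenic cells by -0.66 ± 0.12 (limma, adjusted p = 0.00538), a 1.58-fold difference, and its second probe gave -0.43. The call ended without wild-type control replicate 3 (-0.78 to -0.55 over the leave-outs, adjusted p 0.00311 to 0.0614), with the normexp background correction (-0.29, adjusted p = 0.107) and without slide column 4 (-0.41, adjusted p = 0.0803). Within slide 1 it was -0.76 (adjusted p = 0.013). Within slide 2, with 1 array in each control group, it was -0.44. With tumour material the difference was -0.19 ± 0.14 (adjusted p = 0.514). The transgenic response thus started lower and ended near the wild-type level, and the 2 responses differed by 0.47 ± 0.18 (adjusted p = 0.289).

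Slc7a2, the arginine carrier of activated macrophages, followed Arg1 in direction. In the wild-type and transgenic control cells its levels were -3.96 to -3.18 and -4.86 to -4.64, not above background on any array. With tumour material they were -0.12, -0.08 and 0.05 in wild-type cells. They were -1.24 and -1.82 in transgenic cells. The transgenic tumour replicates thus lay between the wild-type tumour replicates and background. Slc7a2 was at least 6.87-fold higher with tumour material in wild-type cells and at least 4.0-fold higher in transgenic cells, with log2 bounds of 2.78 and 2.0, or 1.13 and 0.60 with normexp.

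With tumour material Slc7a2 was 3.34-fold lower in transgenic than in wild-type cells, by -1.74 ± 0.25 (limma, adjusted p = 0.00218). The call ended without wild-type tumour replicate 3 or transgenic tumour replicate 3, with values of -1.95 to -1.32 and adjusted p of 0.000929 to 0.0756 over the 11 leave-outs. With normexp the difference was -0.90 (adjusted p = 0.00182). Within slide 2, which holds 1 wild-type tumour array, it was -1.74. Of the fibroblast markers given beside Arg1, Lum, Dcn and the 3 collagens were also lower in transgenic tumour cells and Thy1 was higher, and their part in this difference was not tested.

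Over the 9 genes with tumour material, Arg1 and Slc7a2 were the 2 past the threshold between genotypes, both lower, against 4.53% of all genes, with 1.97% higher and 2.56% lower. The count includes Arg1, whose values chose it. The replicates of 7 of the 9 genes did not overlap, all lower in transgenic cells, against 48% of all genes tested in groups of 3 and 2. The members' median was -0.34, against -0.01 over all genes.

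**Figure D3:**
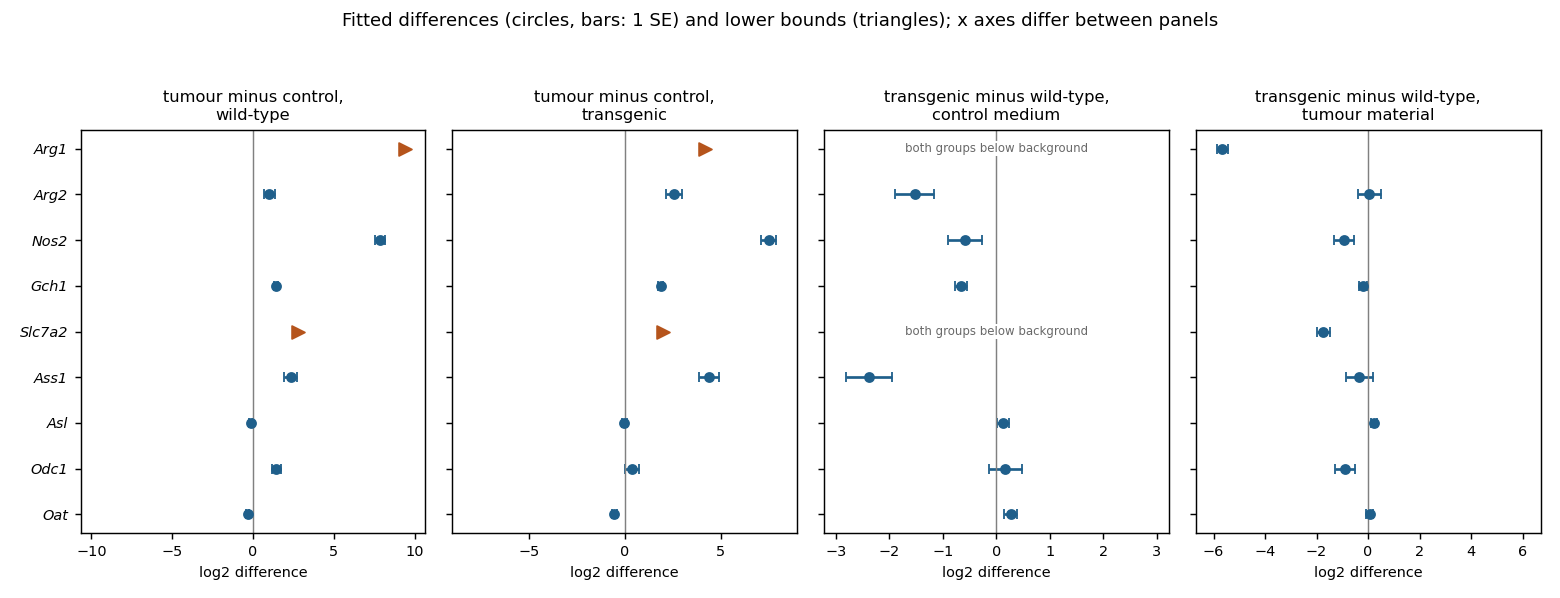
Log2 differences (x axis, 1 panel for each comparison) of the 9 genes (y axis) from the fit over all genes. Circles are fitted differences with bars of 1 SE and triangles are lower bounds where 1 group was below background; with tumour material only Arg1 (-5.66) and Slc7a2 (-1.74) lie more than 1 log2 unit below 0, and in control medium Ass1 (-2.39) and Arg2 (-1.53) do.

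Ass1 joins citrulline and aspartate, the step that limits the return of citrulline to arginine. Its levels were 4.81, 4.32 and 5.14 in wild-type control cells and 7.15, 7.48 and 7.04 in wild-type tumour cells. They were 3.87, 1.72 and 1.71 in transgenic control cells and 6.83 and 6.58 in transgenic tumour cells. Transgenic control replicate 1 stood well above the other 2, and all 3 lay below the wild-type controls. The rise with tumour material was 2.34 ± 0.41 in wild-type cells and 4.39 ± 0.53 in transgenic cells (SE), 5.06-fold and 20.9-fold. The second probe of Ass1 gave 2.23 and 4.24.

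In control medium Ass1 was 5.23-fold lower in transgenic cells, by -2.39 ± 0.44 (limma, adjusted p = 0.00598), and its second probe gave -2.28. The call ended without wild-type control replicate 3 (adjusted p = 0.102), and over the 11 leave-outs the difference ran from -3.19 to -1.92 and the adjusted p from 8.71e-06 to 0.102. Within slide 1 it was -1.96 (adjusted p = 0.0775). Within slide 2, with 1 array in each control group, it was -3.44. With tumour material the genotypes differed by -0.34 ± 0.53 (adjusted p = 0.781). The responses differed by 2.05 ± 0.67 (adjusted p = 0.187), and by 2.60 without transgenic control replicate 1 (adjusted p = 0.000519, the lowest of 0.000519 to 0.609 over the leave-outs). In that replicate the summed signal of the 10 neutrophil and precursor markers was 576, against 178 and 198 in the other transgenic controls and 238 to 256 in the wild-type controls. Its part in these values was not tested.

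Asl, which completes the return to arginine, was flat. Its levels were 2.59 to 2.97 in wild-type control cells, 2.53 to 2.75 in wild-type tumour cells, 2.80 to 2.89 in transgenic control cells and 2.70 to 2.74 in transgenic tumour cells. The groups overlapped apart from the 2 transgenic ones. The differences with tumour material were -0.12 ± 0.10 and -0.02 ± 0.13 (SE). Between genotypes they were 0.13 ± 0.11 in control medium (limma, adjusted p = 0.52) and 0.23 ± 0.13 with tumour material (adjusted p = 0.395).

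Among the 7 genes measured in both control groups, which leave out Arg1 and Slc7a2, Arg2, Gch1 and Ass1 passed the threshold between genotypes in control medium, all lower in transgenic cells. The 7 include Nos2, whose values chose it. Over all genes 8.85% passed, 3.6% higher and 5.25% lower. The replicates of Ass1, Gch1 and Oat did not overlap, 3 of 7, against 21.5% of all genes. All 3 calls ended without wild-type control replicate 3, where none of the 7 genes passed, and without transgenic control replicate 1 there were 5. Over all genes the calls went from 1402 to 423 in the former fit and to 2711 in the latter. Both counts thus moved with the calls over all genes. Some cell markers moved with this comparison and others did not. The summed macrophage markers were 1841 to 2124 in transgenic and 2212 to 2720 in wild-type controls. Of the 10 neutrophil and precursor markers, Mpo, Elane, Ctsg and Prtn3 were higher in every transgenic control. Their lowest levels were 3.88, 3.19, 2.19 and -1.23, against highest levels of 2.55, 2.17, 1.0 and -1.96 in wild-type controls. Mmp8, Ltf, S100a8 and S100a9 had lower means in transgenic controls, with overlap. They were 0.92, 4.08, 5.11 and 6.93, against 2.97, 5.01, 5.37 and 7.02. Ngp and Camp had higher means, with overlap. The summed signal was 576, 178 and 198 in transgenic and 238 to 256 in wild-type controls. The part of these markers in the 3 calls was not tested. The median of the 7 genes was -0.58, against -0.03 over all genes. With tumour material the differences of Arg2, Gch1 and Ass1 were smaller, at 0.05, -0.19 and -0.34.

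Odc1 turns ornithine into putrescine and so commits it to polyamines. Its levels were -0.73, -0.53 and -0.67 in wild-type control cells and 0.83, 0.89 and 0.74 in wild-type tumour cells. They were -1.43, -0.19 and 0.27 in transgenic control cells and 0.40 and -0.02 in transgenic tumour cells. The wild-type groups were tight and apart. The transgenic controls spanned the wild-type controls, lay below every wild-type tumour replicate and overlapped the transgenic tumour replicates. The rise was 1.45 ± 0.29 in wild-type cells, 2.73-fold, and the value in transgenic cells was 0.39 ± 0.38 (SE). A second probe gave 1.49 and 0.50, and another was above background on too few arrays to be used.

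Between genotypes Odc1 differed by 0.17 ± 0.31 in control medium (limma, adjusted p = 0.783) and by -0.89 ± 0.37 with tumour material (adjusted p = 0.231). The responses differed by -1.06 ± 0.48 (adjusted p = 0.383). Without transgenic control replicate 1 these values were 0.67 (adjusted p = 0.0365), -0.74 (adjusted p = 0.0321) and -1.42 (adjusted p = 0.0071), the lowest adjusted p of the leave-outs, which reached 0.984, 0.909 and 0.847. The second array of transgenic tumour replicate 3 differed from the first by -0.67 for Odc1. Over all leave-outs the difference in control medium ran from -0.18 to 0.67, on both sides of 0.

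Oat moves ornithine toward proline and glutamate in mitochondria and was the only one of the 9 genes called lower with tumour material. Its levels were 2.15, 2.01 and 2.05 in wild-type control cells and 1.70, 1.82 and 1.69 in wild-type tumour cells. They were 2.45, 2.35 and 2.16 in transgenic control cells and 1.54 and 1.81 in transgenic tumour cells. Control and tumour replicates were apart in each genotype by a narrow margin. The fitted changes were -0.34 ± 0.11 and -0.54 ± 0.14 (SE), 1.26-fold and 1.45-fold lower. Between genotypes Oat differed by 0.27 ± 0.12 in control medium (limma, adjusted p = 0.178) and by 0.07 ± 0.14 with tumour material (adjusted p = 0.844).

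The transgenic response minus the wild-type response was fitted for the 7 genes above background on some array of every group, which leave out Arg1 and Slc7a2. The count includes Nos2, whose values chose it. By limma 0 of 7 passed, against 1.95% of all genes (1.02% higher, 0.928% lower), and 4 of 7 had an unadjusted p under 0.05, as did 1958 of all 15834 genes. No other tool was run. Without transgenic control replicate 1 the count was 2, Ass1 and Odc1, with differences in opposite directions, and without transgenic control replicate 2 it was 1, Arg2 (adjusted p = 0.0166, of 0.0166 to 0.632 over the leave-outs).

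**Figure D4:**
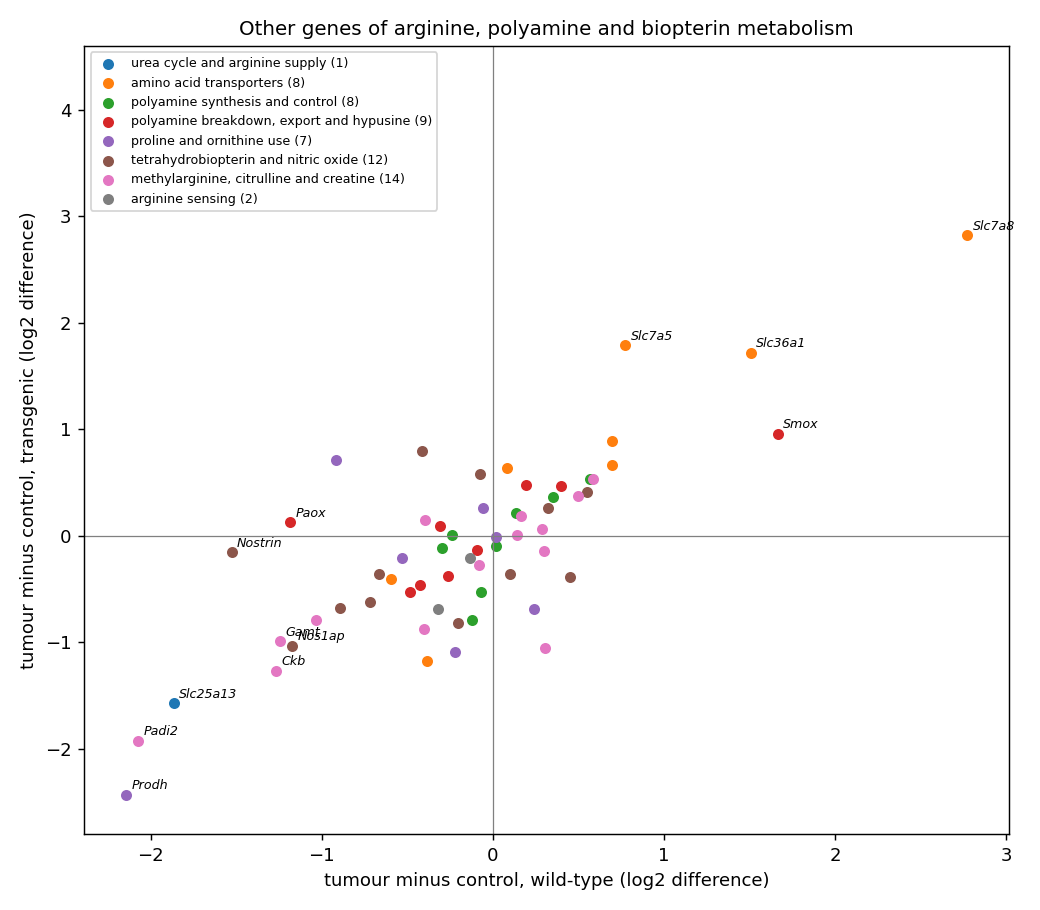
Difference between tumour material and control in wild-type (x axis) and transgenic cells (y axis), both log2, for 61 other genes of the pathway, coloured by list with the number tested. Genes with a called difference above 1.1 (wild-type) or 1.5 (transgenic) are named, and genes with a group below background are at their fitted value; Slc7a8, Slc36a1, Slc7a5 and Smox lie at the upper right, and Prodh, Padi2 and Slc25a13 at the lower left.

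Beyond the 9 genes, the lists of arginine, polyamine and biopterin metabolism held 89 symbols, of which 81 were on the array and 61 above background in some group. With tumour material 10 of the 61 rose and 16 fell in wild-type cells, and 6 rose and 9 fell in transgenic cells (limma, adjusted p under 0.05). Over all genes 23.1% rose and 16.7% fell in wild-type cells, and 15.1% and 10.2% in transgenic cells. Leaving out 1 replicate ended the call of 13 of the 26 called genes in wild-type cells and 3 of the 15 in transgenic cells in at least 1 fit. Without transgenic control replicate 1 the transgenic counts were 10 and 15. The median difference of the 61 genes was -0.09 in wild-type and -0.13 in transgenic cells, against 0.05 and 0.06 over all genes. These lists were chosen with earlier results of these data known, so their counts and adjusted p are not independent of those results.

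Among amino acid transporters 5 of 8 rose in each genotype: Slc7a5, Slc7a7, Slc7a8, their shared heavy chain Slc3a2, and the lysosomal transporter Slc36a1. Transporters other than Slc7a8 and Slc7a5 were named after their values were seen. The wild-type call of Slc7a5 ended in 3 leave-outs (adjusted p up to 0.095). Slc7a8, an exchanger of neutral amino acids, rose by 2.77 ± 0.11 in wild-type (limma, adjusted p = 1.03e-08) and by 2.82 ± 0.15 in transgenic cells (adjusted p = 1.93e-07). Slc7a1, the arginine carrier of resting cells, was at 3.21 ± 0.20 and 3.28 ± 0.10 (SD, n = 3 each) in wild-type control and tumour cells, with adjusted p = 0.744 by limma. The lysosomal arginine sensor Slc38a9 fell in wild-type cells, by -0.60 (adjusted p = 0.00244). In transgenic cells Slc7a3 fell, at least 1.65-fold, to below background, a call that ended when any of 5 replicates was left out (adjusted p up to 0.458). In control medium Slc7a5 was lower in transgenic cells by -1.13 (limma, adjusted p = 0.0153). Its size is uncertain, since 1 of 3 transgenic control arrays was above background. Slc7a8 and Slc3a2 were lower there by -0.59 and -0.51 (adjusted p = 0.0115 and 0.0447). All of these calls ended without wild-type control replicate 3, with adjusted p up to 0.0902, 0.128 and 0.242, and that of Slc7a5 also without transgenic tumour replicate 3.

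None of the 8 genes of polyamine synthesis and its control passed in either genotype with tumour material, among them Srm and Sms, the synthases that follow Odc1, and without transgenic control replicate 1 there were 1 higher and 1 lower in each. The antizyme Oaz2, an inhibitor of Odc1, was higher in transgenic control cells by 1.16 ± 0.23 (limma, adjusted p = 0.00997), a call that ended without wild-type control replicate 3 (adjusted p = 0.0673). Of the 9 genes of breakdown, export and hypusine, Smox and Dhps rose and Paox and Eif5a2 fell in wild-type cells, and Smox alone rose in transgenic cells. The calls of Dhps and Eif5a2 each ended in 6 leave-outs (adjusted p up to 0.0933 and 0.26). Smox, spermine oxidase, rose by 1.67 and 0.96 (adjusted p = 5.14e-07 and 0.000519) and differed by -0.91 between transgenic and wild-type tumour cells (adjusted p = 0.00379). The last call ended without wild-type tumour replicate 3 or transgenic tumour replicate 3 (adjusted p up to 0.104). Smox, Dhps and Eif5a2 were named after their values were seen.

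Paox, which oxidises acetylated polyamines, was at 5.10 ± 0.14 and 3.94 ± 0.09 in wild-type control and tumour cells (SD, n = 3 each). It was at 4.97 ± 0.44 (SD, n = 3) and 5.17 ± 0.19 (SD, n = 2) in the transgenic groups. With tumour material it was thus higher in transgenic cells, by 1.16 ± 0.22 (limma, adjusted p = 0.00983), a call that ended without wild-type tumour replicate 3 or transgenic tumour replicate 3 (adjusted p up to 0.303).

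Of 7 genes of proline and ornithine use, 3 fell in wild-type and 2 in transgenic cells and none rose. Prodh, which begins proline breakdown, fell by -2.14 ± 0.24 and -2.43 ± 0.31 (limma, adjusted p = 2.75e-05 and 0.000167). Glul, glutamine synthetase, was lower in transgenic than in wild-type tumour cells, by -0.98 ± 0.12 (adjusted p = 0.000745). Slc25a13, the mitochondrial aspartate carrier and the only 1 of 7 listed urea cycle and supply genes above background, changed by -1.87 and -1.57 (adjusted p = 0.000338 and 0.01). The latter call ended without transgenic control replicate 3 or transgenic tumour replicate 3 (adjusted p up to 0.147). The other 6, among them Otc, which makes citrulline from ornithine in liver, were not above background on all arrays of any group.

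Of 12 other genes of tetrahydrobiopterin and nitric oxide, 1 rose and 5 fell in wild-type cells, and none rose and 1 fell in transgenic cells. The gene that fell in both was Qdpr, which regenerates tetrahydrobiopterin, by -0.89 ± 0.10 and -0.67 ± 0.12 (limma, adjusted p = 1.87e-05 and 0.00201). Nostrin, which guides the traffic of nitric oxide synthase, was at least 3.21-fold higher in transgenic tumour cells (adjusted p = 0.0326), a call that ended when any of 6 replicates was left out (adjusted p up to 0.228).

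Of 14 genes of methylarginine, citrulline and creatine, 2 rose and 3 fell in wild-type cells and none rose and 3 fell in transgenic cells. Padi2, which turns arginine in proteins into citrulline, fell to below background in wild-type cells, at least 3.36-fold (limma, adjusted p = 9.92e-05). It was higher in transgenic cells by 1.48 ± 0.29 in control medium (adjusted p = 0.00961) and at least 2.82-fold with tumour material (adjusted p = 0.0222). Both calls ended without wild-type control replicate 3 or transgenic tumour replicate 3, and the second also without wild-type tumour replicate 3, with adjusted p up to 0.0973 and 0.388. Of the arginine sensing list 4 of 7 symbols were on the array and 2 above background.

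Of 17 tested cytokines, receptors and factors known to act on Arg1 or Nos2, 9 rose and 2 fell in wild-type cells, and 7 rose and 2 fell in transgenic cells, with medians of 0.54 and 0.60. Over all genes 23.1% rose and 16.7% fell in wild-type cells, and 15.1% and 10.2% in transgenic cells. This list too was chosen with earlier results of these data known. Its counts and adjusted p, in every comparison, are thus not independent of those results. Il6, an inflammatory cytokine, rose by 8.52 ± 0.13 in wild-type cells (limma, adjusted p = 2.7e-12), against a control group above background on 2 of 4 arrays. It rose at least 101-fold in transgenic cells, and with tumour material it was lower in transgenic cells by -2.69 ± 0.17 (adjusted p = 1.13e-05). Il10, an anti-inflammatory cytokine, rose by 3.27 ± 0.18 in wild-type cells (adjusted p = 1.15e-07) and was lower in transgenic tumour cells by -3.27 ± 0.24 (adjusted p = 3.97e-05). Il4ra, the receptor chain for the cytokines of alternative activation, rose by 1.64 ± 0.22 in wild-type and 2.70 ± 0.29 in transgenic cells (adjusted p = 0.000106 and 3.86e-05). Klf4, a factor of alternative activation, rose by 1.04 ± 0.20 and 2.14 ± 0.26 (adjusted p = 0.00148 and 0.000114). The difference of responses did not pass for Il4ra or Klf4 (adjusted p = 0.21 and 0.142). Pparg, a nuclear receptor of alternative activation, fell by -3.19 ± 0.38 and -2.40 ± 0.50 (adjusted p = 4.82e-05 and 0.00432). The transgenic call for Pparg ended without transgenic control replicate 3 or transgenic tumour replicate 3 (adjusted p up to 0.0734).

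In control medium 4 of the 17 were lower in transgenic cells and none was higher, against 5.25% and 3.6% of all genes: Il6, Il4ra, Klf4 and Stat3. Il4ra differed by -1.61 ± 0.24 (limma, adjusted p = 0.00154) and Klf4 by -1.49 ± 0.22 (adjusted p = 0.00148). Il6 was at least 1.79-fold lower (adjusted p = 1.88e-05). It was above background on 2 of 4 wild-type control arrays and on no transgenic one, so the size of this difference is uncertain. Stat3 was named after its values were seen, and its difference of -0.60 (adjusted p = 0.0447) lost its call when any of 9 replicates was left out, with adjusted p up to 0.278. Stat6, the factor through which interleukin 4 induces Arg1, differed by 0.15 in control medium and -0.16 with tumour material (adjusted p = 0.488 and 0.604). With tumour material Il6 and Il10 were the 2 of 17 past the threshold, both lower in transgenic cells, against 2.56% lower over all genes.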

How the data were processed

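Per the labels' protocols, 200 ng of column-purified total RNA was labelled with Cy3 for 1-colour Agilent arrays. Agilent Feature Extraction 10.7.3.1 is named in the submitters' processing notes. The deposited intensity of a spot had its background subtracted and was spatially detrended, per the file headers. The deposited series table holds log2 values. Its columns shared 1 median (2.84) and 1 upper quartile (6.47) and correlated with the scanner signal at 0.9987 or more, so it was read as quantile normalized, not centred by gene and of the same direction.

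From the signals, uneven spots (166 to 270 per array) and 47 probes left without a usable spot were dropped, spots of a probe were averaged, and log2 signals were set relative to the array's 75th percentile over spots that are not controls (83.9 to 144). Symbols came from RefSeq accessions: 28311 probes matched 1 symbol and 27323 none. Probes had to be above background throughout 1 group or more (20208 probes), and a gene was read by its brightest. limma 3.58.1 (R 4.3.3) fitted the 4 groups and the slide, with the replicate as random block for its repeat arrays (correlation 0.072, 9 residual and 2.6 prior degrees of freedom). Every adjusted p is from limma with Benjamini-Hochberg adjustment over 15834 genes, at a threshold of 0.05. The fit was tested on simulated data. A bound compares the bright group's mean with a floor for the dim group, the mean over its arrays of the higher of the probe's signal and the array's lowest signal above background.

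The 9 genes, the pathway and marker lists and the motifs were chosen with earlier results of these data known. Named are all 9 genes, per comparison the 6 list genes with the largest called differences, and the 5 genes most correlated with Arg1 and with Nos2; other list genes were named after their values were seen. Alternatives covered quantile scaling, normexp (offset 50, on the median signal, since the mean signal first planned is not a column used here), the deposited table, filters, the slide, slide column 4, mean of probes, a block for the replicate number, and leaving out each replicate. List counts without transgenic control replicate 1 were added after seeing the data. Whether equal replicate numbers in different groups mark paired samples is unknown, and the main fit did not pair them. Correlations of their deviations from the group means ran from -0.216 to 0.203. With 2 or 3 replicates in a group these deviations depend on each other, so they cannot decide it. One listed gene is not reported here.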

Additional observations from a re-analysis of the deposited data

Results flagged for a closer look

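The responses to tumour material of 3 genes of the wider lists differed between the genotypes by the test of the difference itself (transgenic minus wild-type response, limma, adjusted over all genes). Il10 differed by -2.83 ± 0.30 (SE, adjusted p = 0.000794), with levels of -0.06 and 3.19 in wild-type control and tumour cells and -0.45 and 0.17 in transgenic ones, and the call held in each of the 11 fits that left out 1 replicate (adjusted p up to 0.0217). Glul differed by -0.93 ± 0.15 (adjusted p = 0.00887), and its call ended without wild-type tumour replicate 3 or transgenic tumour replicate 3, with adjusted p up to 0.118. Paox differed by 1.31 ± 0.28 (adjusted p = 0.034), and its call ended when any of 6 replicates was left out (adjusted p up to 0.379).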

How the results depend on the processing

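With probes required above background on all arrays, 6 of the 9 genes were tested, since Arg1, Arg2 and Slc7a2 drop out. The calls were 5 for the wild-type response, 4 for the transgenic response and 0 between genotypes with tumour material. Over all 13267 genes tested with this filter they were 5404, 3324 and 501. With slide 2 only there were 4 in the wild-type response, 0 between genotypes in control medium and 0 with tumour material, where no gene of all tested passed. Slide 2 held 1 array of each wild-type group and 1 of the transgenic control, so nothing is read from its counts of the 9 genes. With slide 1 only there was 1 in control medium, against 1405 of all 15834 genes. Without slide column 4 there were 4 with tumour material and 2 in the difference of responses. Leaving out 1 replicate gave 0 to 5 calls in control medium, 1 to 4 with tumour material and 0 to 2 in the difference of responses. Differences near 0 changed sign, and the cause was not tested. With tumour material the Arg2 difference between genotypes was -0.14 with normexp, -0.28 without the slide term, -0.31 with repeat arrays averaged, -0.017 without slide column 4 and -0.16 to 0.19 over the leave-outs. Gch1 was 0.14 with normexp. Oat was -0.0161 without the slide term, -0.0582 with repeat arrays averaged, -0.11 without column 4 and -0.15 to 0.16 over the leave-outs. In control medium Odc1 was -0.15 with slide 1 only and -0.18 to 0.67 over the leave-outs, and Tfeb was -0.0089 without column 4. The transgenic response of Odc1 was -0.14 with slide 2 only and that of Asl -0.0686 to 0.075 over the leave-outs. The difference of responses of Nos2 was 0.38 with slide 2 only, 0.0108 without column 4 and -0.90 to 0.0323 over the leave-outs, and that of Asl -0.001 to 0.20. The replicate block changed no call of the 9 genes, with Arg1 at -5.73 between genotypes with tumour material and 533 calls over all genes in place of 717. Over all genes the share of higher calls in the wild-type response was 58% and with quantile scaling 48.6%, and between genotypes in control medium it was 40.7% and with normexp 54.3%. Calls over all genes also fell in some leave-outs. Without wild-type control replicate 3 they went from 1402 to 423 in control medium. Without wild-type tumour replicate 3 they went from 717 to 149 with tumour material and from 308 to 48 in the difference of responses. Without transgenic control replicate 1 the calls among the 61 other pathway genes went from 15 to 25 in the transgenic response, from 7 to 16 in control medium, from 5 to 16 with tumour material and from 2 to 6 in the difference of responses. Over all genes, the calls between genotypes in control medium, with tumour material and in the difference of responses went from 1402, 717 and 308 to 2711, 2061 and 1197 without transgenic control replicate 1, to 1559, 1584 and 824 without column 4, to 914, 497 and 185 with no filter on dim probes and to 0 in each with slide 2 only.

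The transgenic tumour group has 2 replicates, the fewest, both on slide 2. Where leaving out a replicate leaves a group with 1 sample, that sample is assumed to vary like the others. Signals of Arg1 and Slc7a2 in control cells lie below background, so their folds are bounds, and changes there cannot be seen.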
